A study of Mus musculus with 12 samples.

Results

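Receptors for GABA, glycine and glutamate were followed through poly(A) RNA of whole mouse retina at 2 ages and in 2 genotypes. The set holds 48 protein-coding genes, out of 53028 rows of the gene table, chosen by symbol alone. They are the subunits of GABA-A, GABA rho and glycine receptors, of AMPA, kainate, delta and NMDA glutamate receptors, and the metabotropic glutamate receptors. The symbol pattern fitted 50 genes, and the set leaves out Grm6 and Grik1, which mark bipolar cells. The 48 comprised 16 GABA-A, 3 GABA rho, 5 glycine, 4 AMPA, 4 kainate, 2 delta, 7 NMDA and 7 metabotropic receptor genes.

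There were 12 libraries in 4 groups of 3: wild type (Pilrb1/2+/+) and knockout (Pilrb1/2 -/-), each at postnatal day 28 (P28) and at 12 months. The knockout was made by CRISPR editing of C57BL/6J zygotes and backcrossed to C57BL/6J. The series text names Pilra together with Pilrb1/2 as deleted, while the sample labels name Pilrb1/2 alone. It is a germline deletion, so it is not limited to one retinal cell type. The sources do not say whether each library is a different animal. The p-values of the main fit therefore measure only the spread among libraries of a group, pooled over the 4 groups. This spread may be technical.

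GABA-A, GABA rho and glycine receptors are chloride channels assembled from several subunits that mediate fast inhibition. AMPA, kainate and NMDA receptors are cation channels that mediate fast excitation. Metabotropic glutamate receptors signal through G proteins. In the retina, photoreceptors and bipolar cells release glutamate, amacrine and horizontal cells release GABA or glycine, and the mix of subunits in each neuron sets the speed, ion selectivity and drug response of its synapses.

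Depth was 14.7 to 25.9 M reads, with the commonest small positive value of a library taken as the value of a read. On that scale 3 reads corresponded to 0.111 to 0.192 CPM, a floor that covers counting error only. CPM here is the deposited gene value, counts scaled to library size and normalized between libraries. The targeted Pilrb1 and Pilrb2 were at or below 0.0520 CPM in every library, wild type included, so their levels did not check the labels. The P28 wild-type libraries held 0.133, 0.167 and 0.170 CPM of Pilra and the P28 libraries labelled knockout more, namely 0.441, 1.16 and 0.819, which runs against the deletion of Pilra that the series text names. The 12-month values of Pilra, 0.159, 0.221 and 0.268 for wild type and 0.0556, 0.309 and 0.293 for knockout, overlapped. Wild type and knockout therefore mean, throughout, the libraries so labelled. Judged by Xist above 100 CPM, 2 of 3 libraries were female in P28 knockout and in 12-month wild type. In the other groups 0 of 3 were. Sex thus differed with genotype at each age and with age in each genotype. Summed rod markers (8 of 8 found) were at 31610 to 42290 CPM in P28 wild type, 22247 to 27908 in P28 knockout, 35638 to 42639 in 12-month wild type and 21880 to 28684 in 12-month knockout. Of the marker lists for bipolar, amacrine, horizontal and ganglion cells, 10 of 10, 10 of 10, 4 of 5 and 10 of 10 genes were found and none was at 0 throughout. P28 knockout library 2 stood apart with 4756 CPM of summed lens crystallins, against 9.85 to 1722 CPM in the other 11. In bulk tissue, fewer cells of a type and less RNA per cell cannot be told apart.

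Levels were compared between genes on the RPKM scale, reads scaled to transcript length and library size, summed over the transcripts of a gene. The GABA-A family held the largest share of the receptor RNA, at 42.8% ± 1.15 (SD, n = 3) of the summed RPKM of the 48 genes in P28 wild type and 39.8% ± 0.671 in 12-month wild type. AMPA receptors followed with 21.7% ± 1.48 and 23.2% ± 0.394. GABA rho receptors held 12.2% ± 0.684 and 13.7% ± 0.496, and glycine receptors 10.99% ± 0.334 and 9.85% ± 0.510. Metabotropic (5.63% ± 0.111 at P28), kainate (3.08% ± 0.149), NMDA (2.63% ± 0.354) and delta receptors (0.894% ± 0.0992) made up the rest. Among these 48 genes, which leave out the kainate subunit gene Grik1, inhibitory channel genes thus outweighed excitatory ones in summed RPKM in wild type. The sums also count transcripts not annotated as protein-coding, a large part in Gria2, Gria3 and Grik5 and also in Gabra2, Grik2 and Grin1, among others. They therefore measure no balance of receptor proteins. Of the 48 genes, 44 reached 1 CPM in at least 3 libraries and were tested. Gabra6, Gabrp, Grin2c and Grin3b did not, with Gabra6 at 0 in 11 libraries, Gabrp in 10 and Grin3b in 6.

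**Figure D1:**
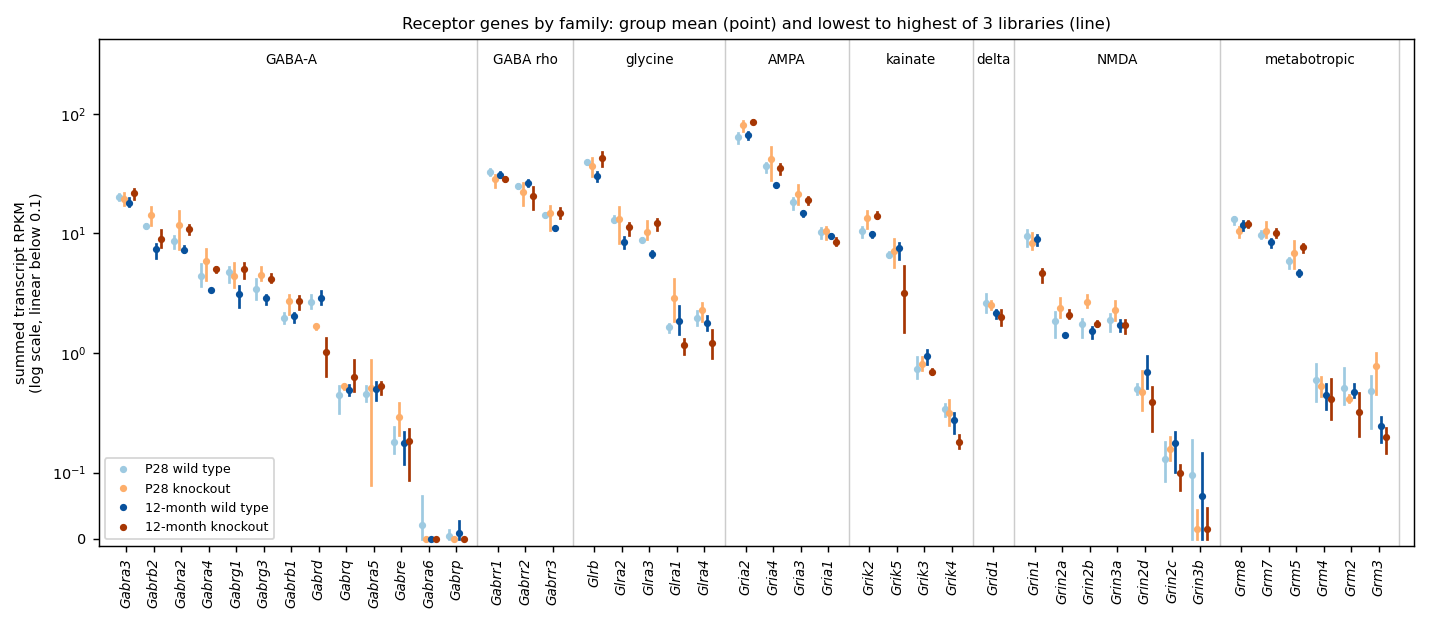
Summed transcript RPKM (vertical axis, log scale, linear below 0.1) of 43 of the 48 receptor genes, ordered by mean level within 8 families. Points are group means and lines run from the lowest to the highest of 3 libraries; Gria2 averaged 74.0 RPKM over all 12 libraries, and Gabra6 and Gabrp were close to 0.

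Among GABA-A subunits, Gabra3 (chrX:72432681-72656848 on GRCm38, minus strand), an alpha subunit, averaged 19.8 RPKM and had CPM values of 68.6, 67.4 and 72.7 in P28 wild type, 66.7, 64.8 and 76.4 in P28 knockout, 60.9, 70.7 and 61.7 in 12-month wild type and 79.9, 79.1 and 68.5 in 12-month knockout. Gabra2 (chr5:70957597-71095849, minus strand), another alpha subunit, averaged 9.69 RPKM and had CPM values of 33.2, 39.5 and 40.8 in P28 wild type, 55.2, 34.6 and 66.9 in P28 knockout, 31.4, 35.1 and 31.4 in 12-month wild type and 49.9, 49.6 and 43.5 in 12-month knockout. In Gabra3 the knockout and wild-type ranges overlapped at both ages, and in Gabra2 they overlapped at P28 and not at 12 months. Gabrb2 averaged 10.5 RPKM, Gabra4 4.65, Gabrg1 4.34, Gabrg3 3.75, Gabrb1 2.36 and Gabrd 2.06. Gabrq, Gabra5 and Gabre averaged 0.525, 0.497 and 0.207 RPKM. In P28 wild type the range of Gabra3 (19.2 to 21.4 RPKM) lay above those of Gabrb2 (11.1 to 12.0) and Gabra2 (7.54 to 9.55), while Gabra4 (3.60 to 5.52), Gabrg1 (3.90 to 5.24) and Gabrg3 (2.85 to 4.19) overlapped. In that group coding transcripts held 98.1% of the Gabra3 RPKM, 49.2% for Gabra2 and 69.5% for Gabrg1. The ranges of Gabra2 and Gabrg1 are therefore not levels of coding message.

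Many of these subunits lie in clusters, given here with the GRCm38 position of the whole cluster. Gabrg1, Gabra2, Gabra4 and Gabrb1 share chr5:70751047-72149037. Gabre, Gabra3 and Gabrq share chrX:72255999-72842602, and Gabrr2 and Gabrr1 share chr4:33062999-33163588. Neighbours differed in level: on the X chromosome Gabra3 averaged 19.8 RPKM and Gabre 0.207.

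The rho subunits, which form slowly closing GABA channels known from bipolar cell terminals, were all well detected. Gabrr1 (chr4:33132521-33163588, plus strand) had CPM values of 76.2, 70.3 and 75.5 in P28 wild type, 70.4, 58.4 and 67.9 in P28 knockout, 75.2, 71.5 and 68.9 in 12-month wild type and 69.0, 59.9 and 63.4 in 12-month knockout. Gabrr2 had CPM values of 43.9, 41.7 and 43.2 in P28 wild type, 39.0, 49.9 and 30.0 in P28 knockout, 49.8, 44.1 and 43.97 in 12-month wild type and 37.7, 26.4 and 42.3 in 12-month knockout. Gabrr1 ran from 58.4 to 76.2 CPM over all 12 libraries, and none of the 3 rho genes passed the test in any comparison below.

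Of the glycine receptor genes, Glrb (chr3:80843599-80913660, minus strand), the beta subunit that binds the scaffold gephyrin, was the highest at a mean of 37.4 RPKM. It had CPM values of 109, 105 and 109 in P28 wild type, 96.3, 90.1 and 114 in P28 knockout, 91.8, 87.1 and 75.6 in 12-month wild type and 121, 123 and 97.5 in 12-month knockout. Glra2 (chrX:165129017-165327393, minus strand), the leading alpha subunit, had CPM values of 38.9, 38.9 and 42.3 in P28 wild type, 46.4, 27.5 and 52.0 in P28 knockout, 27.2, 29.5 and 24.3 in 12-month wild type and 38.0, 36.4 and 30.7 in 12-month knockout. In both, the 12-month wild-type libraries lay below all P28 wild-type and all 12-month knockout libraries. Glra3 averaged 9.51 RPKM, and Glra1 and Glra4 1.88 and 1.81.

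AMPA receptors were led by Gria2 (chr3:80681450-80802835, minus strand), whose edited subunit keeps calcium out of the channel, with CPM values of 316, 387 and 348 in P28 wild type, 401, 481 and 482 in P28 knockout, 379, 401 and 350.0 in 12-month wild type and 501, 447 and 468 in 12-month knockout. Gria4 (chr9:4417896-4796234, minus strand) had CPM values of 152, 176 and 174 in P28 wild type, 207, 137 and 243 in P28 knockout, 120.2, 121 and 115.4 in 12-month wild type and 171, 168 and 147 in 12-month knockout. Per length the order in summed RPKM was Gria2, Gria4 (34.8), Gria3 (18.4) and Gria1 (9.67). Neighbours did not overlap in P28 wild type or in 12-month wild type. In these groups a nonsense-mediated decay transcript held 79.4% and 82.9% of the Gria3 RPKM, and coding transcripts 12.5% and 10.7%. For Gria1 coding transcripts held 100% in both, so the order is not one of coding message. Transcripts annotated as retained introns held part of the Gria2 RPKM, 26.4% and 13.7% for the leading ones over all libraries.

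Each AMPA subunit gene carries a pair of alternative exons of equal length, flop and flip, of which a mature transcript normally keeps 1, and which set how fast the channel desensitizes. They are shown for Gria2 and Gria4, whose shares differed between groups as described further on, 5′ to 3′ on the transcribed strand, with the bases that differ between the pair in capitals. The sequences were read from the GENCODE M21 transcripts on GRCm38. They lie at chr3:80691320-80691434 and chr3:80690404-80690518 for Gria2 flop and flip, and at chr9:4432773-4432887 and chr9:4427030-4427144 for Gria4 flop and flip, all coding and on the minus strand.
Gria2 flop: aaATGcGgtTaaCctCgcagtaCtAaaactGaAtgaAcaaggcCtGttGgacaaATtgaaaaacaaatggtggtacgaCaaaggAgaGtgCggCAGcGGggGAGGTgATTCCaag
Gria2 flip: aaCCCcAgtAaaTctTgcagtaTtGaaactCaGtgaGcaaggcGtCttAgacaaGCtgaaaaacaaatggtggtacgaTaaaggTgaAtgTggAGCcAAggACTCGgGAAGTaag
Gria4 flop: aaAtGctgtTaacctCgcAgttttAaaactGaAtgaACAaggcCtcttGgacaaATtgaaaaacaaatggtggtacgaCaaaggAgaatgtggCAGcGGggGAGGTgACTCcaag
Gria4 flip: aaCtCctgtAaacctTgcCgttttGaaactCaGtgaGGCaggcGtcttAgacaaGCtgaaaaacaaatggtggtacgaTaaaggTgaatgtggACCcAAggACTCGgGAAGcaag
Flop and flip were identical at 68.7% of positions in Gria2 and 73.0% in Gria4, with 36 and 31 differing positions.

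Grik2 (chr10:49094833-49788766, minus strand), the GluK2 kainate subunit, had CPM values of 56.3, 68.5 and 64.1 in P28 wild type, 83.7, 71.7 and 93.1 in P28 knockout, 58.0, 62.0 and 64.2 in 12-month wild type and 83.5, 87.8 and 81.4 in 12-month knockout. Grik5 (chr7:25009849-25072346, minus strand), the GluK5 subunit that works only with partners, had CPM values of 10.7, 9.99 and 9.64 in P28 wild type, 11.3, 14.8 and 8.22 in P28 knockout, 12.9, 9.34 and 12.8 in 12-month wild type and 4.30, 2.35 and 8.48 in 12-month knockout. Every 12-month knockout library of Grik5 was below every wild-type one, and the 3 knockout values differed widely among themselves. Retained-intron transcripts held much of the RPKM of both, 48.0% in 1 transcript of Grik2 and 42.2% and 25.4% in 2 of Grik5, so their summed RPKM is not a level of coding message. Grik3 and Grik4 averaged 0.798 and 0.278 RPKM.

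The delta receptors, which bind synaptic organizers and pass little glutamate current, were low. Grid1 (chr14:34820108-35583379, plus strand) had CPM values of 12.4, 14.3 and 16.7 in P28 wild type, 13.6, 13.9 and 15.02 in P28 knockout, 13.0, 12.5 and 11.1 in 12-month wild type and 11.6, 13.1 and 9.59 in 12-month knockout. It did not pass a test in any comparison.

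For NMDA receptors, Grin1 (chr2:25291181-25319187, minus strand), the subunit every NMDA receptor needs, had CPM values of 20.3, 27.3 and 24.3 in P28 wild type, 19.3, 26.9 and 18.6 in P28 knockout, 24.5, 24.6 and 19.8 in 12-month wild type and 12.3, 9.71 and 12.8 in 12-month knockout. Grin2a (chr16:9567898-9995560, minus strand), a glutamate-binding subunit with a very long transcript, had CPM values of 19.8, 28.4 and 30.6 in P28 wild type, 32.0, 30.9 and 41.9 in P28 knockout, 20.1, 21.3 and 21.2 in 12-month wild type and 30.0, 31.4 and 28.2 in 12-month knockout. Grin1 was lowest in 12-month knockout, below all 9 other libraries, and Grin2a in 12-month wild type was below both knockout groups. Per length in P28 wild type Grin2a, Grin2b and Grin3a could not be ordered, with ranges of 1.37 to 2.18, 1.36 to 1.94 and 1.52 to 2.12 RPKM. Grin2d averaged 0.514 RPKM.

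Among metabotropic receptors, the group III members Grm8 and Grm7, presynaptic receptors that lower transmitter release, were the highest. Grm8 (chr6:27275119-28135178, minus strand) had CPM values of 44.9, 38.8 and 43.3 in P28 wild type, 30.5, 36.4 and 36.6 in P28 knockout, 40.4, 42.2 and 35.7 in 12-month wild type and 42.5, 37.9 and 37.3 in 12-month knockout. Grm7 (chr6:110645581-111567230, plus strand) had CPM values of 26.0, 28.2 and 22.9 in P28 wild type, 24.9, 25.4 and 33.3 in P28 knockout, 24.8, 23.9 and 20.6 in 12-month wild type and 28.7, 30.1 and 26.5 in 12-month knockout. Grm8 in P28 knockout lay below P28 wild type and Grm7 in 12-month knockout above 12-month wild type, and neither difference passed the test. Grm5, a phospholipase C-coupled group I receptor, averaged 6.25 RPKM, while Grm4, Grm2 and Grm3 averaged 0.494, 0.429 and 0.426 RPKM.

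Ageing was examined first in wild type, 12 months against P28. The GABA-A subunit Gabrb2 was among the genes that fell. In all, 2 of 44 tested members (4.55%) were lower and 0 were higher, against 1.75% lower and 3.65% higher among all 16486 tested genes. The median log2 fold change of CPM + 1 was -0.14 over the members and 0.01 over all genes, and 32 of 44 members had a negative value. Fold changes on this scale understate changes of genes near 1 CPM.

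Gabrb2 (chr11:42419757-42629028, plus strand), the beta 2 subunit, went from 43.7, 44.6 and 45.9 CPM at P28 to 32.7, 31.0 and 25.2 at 12 months in wild type. Its log2 fold change was -0.59 ± 0.15 (SE, adjusted p = 0.0388, limma). The 3 older libraries lay below the 3 younger ones. The call was lost when any 1 of the 6 libraries was left out, with values between -0.66 and -0.48. It was also lost with the replicate block and with no level filter.

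With smooth trends on GC content and length removed from each library, 7 members (15.9%) were lower with age in wild type and 0 were higher, against 3.29% lower and 4.68% higher among all genes. Gabrb2, Gabrg1, Glra2, Glrb and Gria4 were among them. On the deposited values, Glra2 had -0.55 ± 0.19 (adjusted p = 0.114), Gria4 -0.49 ± 0.16 (adjusted p = 0.11) and Glrb -0.34 ± 0.11 (adjusted p = 0.111), none past the threshold. In these 5 the libraries of the 2 ages did not overlap. Over all 44 members, 13 had older wild-type libraries wholly below the younger ones, where 16.0% of all genes did, and 1 had them wholly above, where 18.9% did. Summed ganglion cell markers were at 891 to 1030 CPM in P28 wild type and 715 to 780 at 12 months. Horizontal cell sums were at 174 to 195 and 114.9 to 122, while amacrine, bipolar, rod and cone sums overlapped. Lower were 1 of 4 tested horizontal and 1 of 9 amacrine markers, and 0 ganglion, bipolar, rod or cone markers passed. With the trends removed 2 of 9 ganglion and 1 of 6 cone markers were lower too. The part of these in the receptor values was not tested.

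In the knockout, 10 members were lower at 12 months than at P28 and 0 were higher. That is 22.7% of the 44, against 13.9% lower and 13.3% higher among all tested genes. The falls covered 2 GABA-A subunits, 2 glycine receptor subunits, Gria1, 2 kainate subunits, 2 NMDA subunits and Grm3. No rho or delta gene was among them.

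Markers of neurons and of other cell types moved in the same comparison, where 13.9% of all genes were lower and 13.3% higher. Lower in 12-month than in P28 knockout were 4 of 9 tested ganglion cell markers, 3 of 9 amacrine, 2 of 10 bipolar and 3 of 6 cone markers, while 0 of 4 horizontal cell markers passed and of 8 rod markers 1 was higher. Of non-neuronal markers, 3 of 6 endothelium and pericyte and 2 of 4 tested microglia markers were lower. So were 2 of 5 erythrocyte and 1 of 2 tested astrocyte markers, while 2 of 8 Mueller glia markers were higher. With the GC and length trends removed the lower counts were 4 ganglion, 1 amacrine, 1 bipolar, 3 cone and 1 horizontal, where 9.73% of all genes were lower. The non-neuronal lower counts were then 2 endothelium and pericyte, 1 microglia, 1 erythrocyte and 0 astrocyte. Summed ganglion cell markers (10 of 10 found, none at 0 throughout) ran from 719 to 1161 CPM in P28 knockout and from 797 to 877 in 12-month knockout, so these groups overlapped. The mitochondrial share of CPM was 4.56 to 7.08% in P28 knockout and 9.94 to 12.6% in 12-month knockout. Their part in the receptor values was not tested.

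Grm3 (chr5:9485541-9725170, minus strand), a group II receptor that lowers cyclic AMP, went from 2.69, 1.45 and 3.03 CPM to 0.447, 0.679 and 0.636, a log2 fold change of -1.07 ± 0.22 (adjusted p = 0.0051). In wild type it was at 0.713, 1.71 and 1.89 CPM at P28 and 0.913, 0.789 and 0.552 at 12 months, with -0.44 ± 0.22 (adjusted p = 0.295). Grm3 is a low gene near 1 CPM, and 1 P28 wild-type library overlapped the older ones. Glra1 (chr11:55514238-55608198, minus strand), the alpha subunit of the spinal glycine receptor, went from 3.94, 9.36 and 5.46 to 2.64, 2.04 and 2.80 CPM in knockout (-0.99 ± 0.24, adjusted p = 0.0104). In wild type it was at 3.19, 3.76 and 3.45 and 5.37, 3.71 and 3.13 CPM, and those groups overlapped. Its highest value came from P28 knockout library 2, the one rich in lens transcripts, and the fall passed without that library too.

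Grin2b (chr6:135713233-136173511, minus strand), the NMDA subunit typical of young synapses, went from 57.3, 62.7 and 72.0 to 44.8, 39.6 and 39.9 CPM in knockout (-0.61 ± 0.14, adjusted p = 0.0081). Grin1, with the values given above, had -0.83 ± 0.16 (adjusted p = 0.00389). Gabrb2 went from 46.2, 58.8 and 65.3 to 42.8, 32.6 and 30.6 CPM (-0.67 ± 0.15, adjusted p = 0.00718). In each of these genes every older knockout library was below every younger one. Gabrb2 was the one member called in both genotypes, in comparisons that share no library: 1 of 2 called in wild type and 1 of 10 called in knockout.

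The remaining knockout falls were Glra4 (-0.70, adjusted p = 0.0109), Grik5 (-1.14, adjusted p = 0.0165), Gabrd (-0.59, adjusted p = 0.0348), Gria1 (-0.33, adjusted p = 0.0293) and Grik4 (-0.48, adjusted p = 0.0379). With the GC and length trends removed there were again 10 lower (22.7%), and 0 higher, against 9.73% lower and 11.5% higher among all genes, and 7 genes were called both ways: Gabrb2, Glra1, Glra4, Grik5, Grin1, Grin2b and Grm3. Log2 fold changes were then -1.08 for Grm3, -0.80 for Gabrb2 and -0.68 for Glra4, while Grin1 was at -0.45 and Gabrd at -0.24 (adjusted p = 0.216). The 12-month libraries lay wholly below P28 in 12 members and wholly above in 1, where 36.0% of all genes did one or the other. Of the 10 calls Grik5 alone had overlapping libraries. The count fell to 4 when only the 2 knockout groups were fitted, to 6 with a sex term, and to 6 without 12-month knockout library 2. Over all 16486 tested genes 733, 1575 and 1173 were lower in these fits, against 2285 in the main one.

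**Figure D2:**
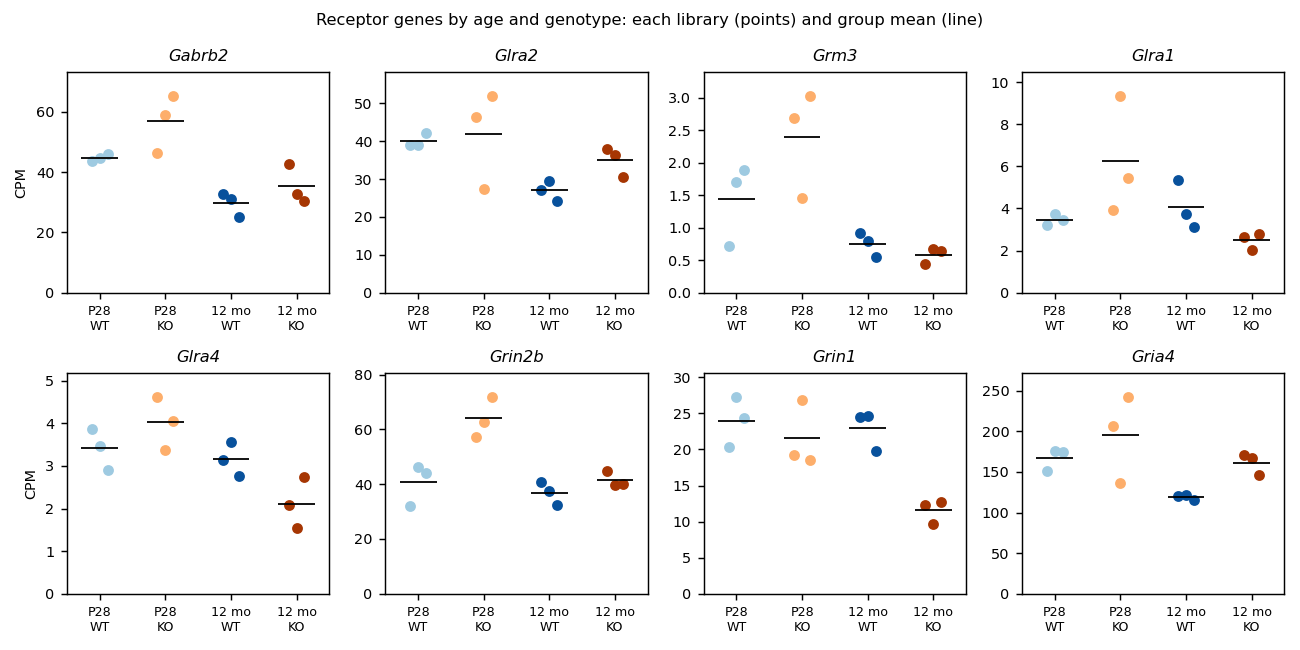
CPM of 8 receptor genes in each library (points) with the group mean (line), vertical axes from 0. Gabrb2 was lower at 12 months than at P28 in both genotypes, and Grm3, Glra1, Glra4, Grin2b and Grin1 in knockout; Glra2 and Gria4 passed in neither.

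Knockout and wild type were compared next at 12 months. There 15 of 44 tested members were higher in knockout than in wild type (34.1%) and 4 were lower (9.09%), against 16.1% higher and 23.5% lower among all tested genes. The risers were 7 GABA-A subunits (among them Gabra2, Gabra4, Gabrg1 and Gabrg3), Glra3 and Glrb, the AMPA subunits Gria2, Gria3 and Gria4, and Grik2, Grin2a and Grm5. The 4 that were lower were Gabrd, Grin1, Grik5 and Grik3. The median log2 fold change was 0.22 over members and -0.03 over all genes. These calls followed GC content closely, as the values further on show.

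Glra3 (chr8:55940460-56130070, plus strand), an alpha subunit of glycine receptors, had the largest rise, from 45.1, 41.4 and 39.5 CPM in 12-month wild type to 80.6, 76.7 and 64.9 in knockout, a log2 fold change of 0.80 ± 0.12 (adjusted p = 0.00256). Grm5 (chr7:87584168-88134907, plus strand) went from 35.8, 31.8 and 30.6 to 54.5, 53.1 and 48.1 CPM (0.65 ± 0.14, adjusted p = 0.00514). In both genes the 3 knockout libraries were above the 3 wild-type libraries.

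Gabrg3 (chr7:56716465-57387188, minus strand), a gamma subunit, went from 20.4, 23.8 and 23.3 to 32.0, 33.7 and 30.3 CPM (0.49 ± 0.13, adjusted p = 0.0132). Grik2 had 0.45 ± 0.10 (adjusted p = 0.0067). Again no knockout library overlapped wild type. The smallest and largest values among Gabra2, Gabra4, Gabrg1, Glrb, Gria2, Gria3, Gria4 and Grin2a were 0.32 (Gria3) and 0.61 (Gabrg1).

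Of the genes that were lower, Gabrd (chr4:155384980-155398112, minus strand), the delta subunit of receptors outside synapses, went from 7.29, 5.61 and 6.18 CPM in 12-month wild type to 2.37, 1.32 and 2.92 in knockout, a log2 fold change of -1.23 ± 0.19 (adjusted p = 0.00256). Grik5 had -1.18 ± 0.30 (adjusted p = 0.0101) and Grin1 -0.93 ± 0.16 (adjusted p = 0.00298). Grik3 (chr4:125490700-125714173, plus strand), a kainate subunit of low glutamate affinity, went from 8.98, 9.49 and 7.44 to 6.61, 5.67 and 6.13 CPM (-0.43 ± 0.16, adjusted p = 0.0479). All 4 had knockout libraries wholly below wild type. Among all members, 21 had knockout libraries wholly above and 9 wholly below wild type, where 27.0% and 32.2% of all genes did.

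**Figure D3:**
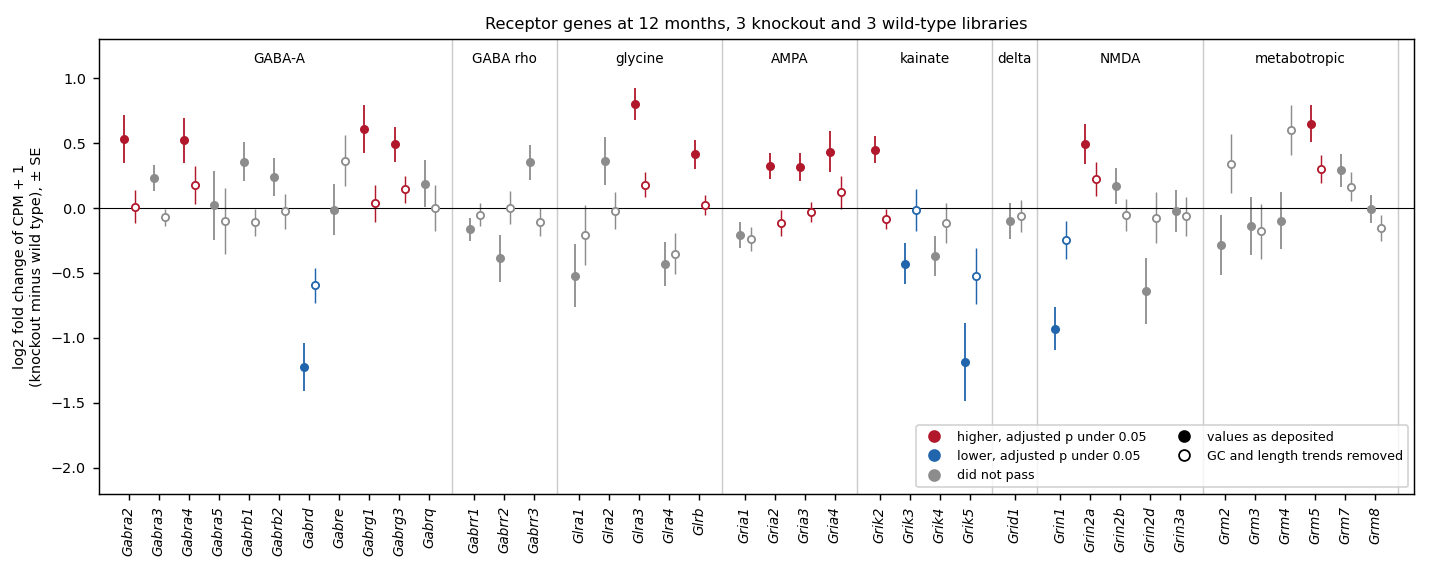
Log2 fold change of CPM + 1 at 12 months, knockout minus wild type, with its SE (vertical axis) for 39 of the 44 tested receptor genes by family. Filled points are the deposited values and open points the same after GC and length trends were removed; the 12 red and 4 blue genes passed on the deposited values, and after removal Gabrd alone did.

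The 15 members that were higher had transcripts of 35.3 to 44.8% GC and the 4 that were lower of 54.2 to 57.6%. Across the 44 members, the 12-month knockout change and GC content had a Spearman correlation of -0.88, and across 16274 genes of -0.79. These are descriptions over genes measured in the same 6 libraries, not over independent samples. With the trends on GC content and length removed, 0 members were higher and 1 was lower, where 2.26% and 2.18% of all genes were. Gabrd was that one, at -0.60 (adjusted p = 0.0365), smaller in size than the -1.23 of the deposited values. Glra3 then had 0.18 (adjusted p = 0.257), Grik5 -0.52 (adjusted p = 0.167), Grin1 -0.25 (adjusted p = 0.337) and Grm5 0.30 (adjusted p = 0.119). Gria2, Gria3 and Grik2 had small negative values.

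**Figure D4:**
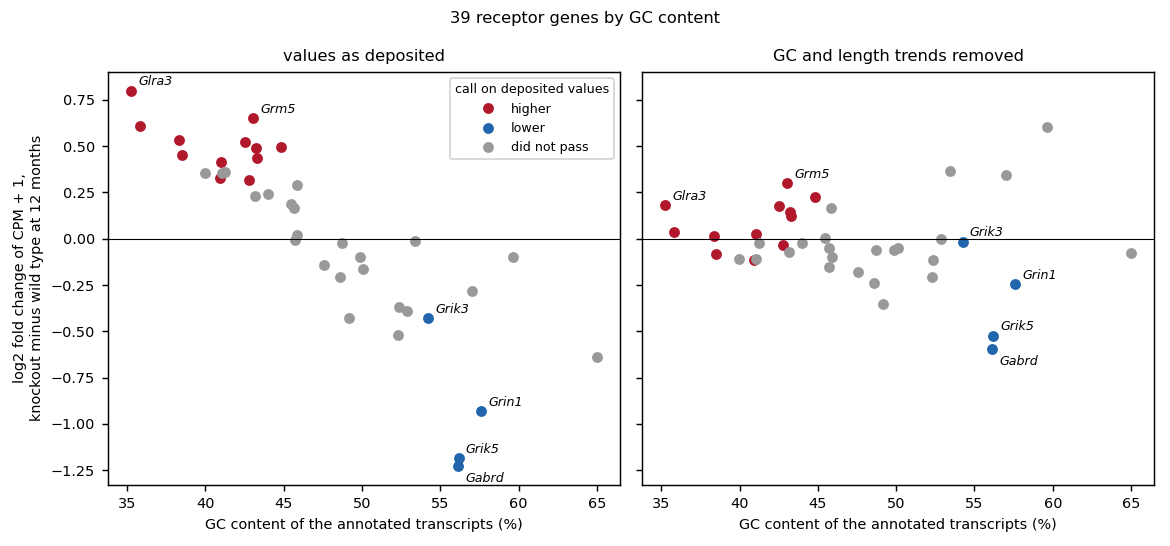
Log2 fold change of 39 receptor genes at 12 months, knockout minus wild type (vertical axis), against the GC content of their transcripts in % (horizontal axis), on the deposited values (left) and with GC and length trends removed (right). On the left the red risers sit at or below 44.8% GC and the blue genes that were lower at or above 54.2%, with Gabrd and Grik5 lowest on both sides.

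Mitochondrial transcripts moved with the same groups, at 7.36 to 8.29% of CPM in 12-month wild type and 9.94 to 12.6% in knockout. Against the 16.1% of all genes higher and 23.5% lower in 12-month knockout, 4 of 8 rod and 5 of 6 cone markers were lower and 3 of 4 tested horizontal cell markers were higher (summed 114.9 to 122 CPM in wild type, 153 to 184 in knockout). Of the other retinal neurons, 1 amacrine marker was higher and 3 were lower of 9, 2 ganglion cell markers were higher and 3 lower of 9, and 1 bipolar marker was lower of 10. Outside the neurons, 5 of 5 erythrocyte markers were lower, 3 of 4 tested microglia markers and 3 of 6 endothelium and pericyte markers. With the GC and length trends removed the lower counts were 0 rod, 3 cone, 0 amacrine, 1 ganglion, 0 bipolar, 1 erythrocyte, 1 microglia and 0 endothelium and pericyte, and 1 horizontal cell marker was higher. The part of these in the receptor values was not tested. Without 1 library the count of risers was 6 without 12-month knockout library 1, 6 without knockout library 2, 16 without knockout library 3, 7 without wild-type library 1, 11 without wild-type library 2 and 6 without wild-type library 3. Over all 16486 tested genes the count higher in these fits ran from 1308 to 2657. In all 6 of those fits Glra3, Grik2, Grm5, Gabrd, Grik5 and Grin1 passed, and in none did Gabra4 or Grik3.

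At P28 Grin2b alone passed, higher in knockout: 1 of 44 members (2.27%) was called, against 1.49% of all genes in either direction. Its libraries had 32.1, 46.2 and 44.2 CPM for P28 wild type and 57.3, 62.7 and 72.0 for P28 knockout, a log2 fold change of 0.65 ± 0.14 (adjusted p = 0.0433), and the groups did not overlap. It did not pass without knockout library 3, nor without any 1 of the 3 wild-type libraries. With a sex term, where 0 of 3 wild-type and 2 of 3 knockout libraries were female, its value was 0.48 (adjusted p = 0.282). It also did not pass with the replicate block (adjusted p = 0.079), with no level filter (0.0771), with only the 2 groups compared (0.23) or with summed RPKM (0.0682), and without the GC and length trends its value was 0.21 (adjusted p = 0.374). With those trends removed 0 members passed either way, against 0.799% higher and 1.03% lower among all genes. Of the 48 genes Grin2b had the longest transcripts. Across members, the P28 change and transcript length had a Spearman correlation of 0.49, and across 16274 genes of 0.41. Gria2 (0.37 ± 0.10, adjusted p = 0.0772) and Grik2 (0.39 ± 0.10, adjusted p = 0.0755) came next without passing. With P28 knockout library 2, the lens-rich one, left out, 6 members were higher and 0 lower, and without knockout library 1 the counts were 3 and 0. Over all 16486 tested genes these fits called 889 higher and 515 lower, and 241 and 87. Knockout libraries lay wholly above wild type in 10 members and wholly below in 2, where 10.5% and 13.2% of all genes did. Gabrd was one of the 2, with 6.68, 5.59 and 5.03 CPM for wild type and 3.72, 3.94 and 3.46 for knockout, and had an adjusted p of 0.139 (-0.52 ± 0.19).

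Whether the knockout effect differed between the ages was tested as an interaction. By limma 0 of 44 members passed in either direction, against 0.0789% higher and 0.0971% lower of all genes, while 13 members had an unadjusted p under 0.05. For Glra3 the knockout effect was larger at 12 months by 0.56 ± 0.17 (adjusted p = 0.0916, 95% interval 0.18 to 0.94). For Glra1 the effect was more negative at 12 months by -1.15 ± 0.34 (adjusted p = 0.0848, 95% interval -1.89 to -0.42). Sex ran opposite ways in this contrast. At P28 0 of 3 wild-type and 2 of 3 knockout libraries were female, and at 12 months 2 of 3 and 0 of 3. With a sex term 0 members passed and 8 had an unadjusted p under 0.05, and 0 of all genes passed. With GC and length trends removed 0 members passed as well, against 0.0123% higher and 0.00% lower of all genes. Leaving out either of 2 libraries moved the count: without P28 knockout library 3 it was 6 higher and 3 lower, and without 12-month knockout library 3 it was 2 and 1. Over all 16486 tested genes these fits called 1215 higher and 1286 lower, and 292 and 510. With all libraries the counts over all genes were 13 and 16.

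Splice forms were described without a test, since transcript values of 1 gene are estimates that depend on one another. The 4 pairs were chosen after their values were seen. At 12 months the flip share of Gria4, as a percent of the RPKM of the flip and flop transcripts, was 22.2, 23.4 and 25.7 in wild type and 7.93, 8.28 and 11.3 in knockout. Their means were 23.8 ± 1.80 and 9.19 ± 1.88 (SD, n = 3). At P28 the shares were 25.1, 24.1 and 15.8 in wild type and 22.7, 25.5 and 14.2 in knockout, which overlapped. At 12 months flip RPKM was 4.89 ± 0.448 in wild type and 2.42 ± 0.349 in knockout, and flop RPKM 15.7 ± 0.331 and 24.1 ± 1.99.

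For Gria2, the flip transcript held 53.1, 59.2 and 48.0 percent in 12-month wild type and 39.2, 30.4 and 41.5 in knockout, with means of 53.5 ± 5.61 and 37.0 ± 5.85. At P28 the means were 56.4 ± 0.662 in wild type and 57.5 ± 8.60 in knockout. Flip RPKM of Gria2 overlapped between the genotypes at 12 months (17.8 ± 3.40 and 16.9 ± 2.25), and flop RPKM was 15.3 ± 1.27 and 28.9 ± 3.55. The Gria2 flop transcript is annotated with 6460 bases that the flip one lacks, nearly all outside the coding sequence, so this pair compares more than the exons printed above. As a share of the whole gene's RPKM, Gria2 flip differed by -6.95 percentage points, against -16.5 within the pair. A Gria2 transcript annotated with both exons is left out of the pair. It held 9.87, 8.27 and 7.62 RPKM in 12-month wild type and 2.39, 2.63 and 3.07 in knockout. For Gria1, 1 flip transcript paired with the flop one overlapped at 12 months, at 38.4 ± 7.31 percent in wild type and 37.6 ± 9.12 in knockout. With both annotated flip transcripts counted, the flip shares were 40.8 ± 6.23 and 38.2 ± 8.93 percent. For Gria3, 76.4% of the RPKM was in a nonsense-mediated decay transcript annotated with both exons, so no share was taken.

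The Gabrr2 transcript with the shorter coding start held 40.6, 31.0 and 22.3 percent of its pair in 12-month wild type and 12.7, 5.67 and 18.1 in knockout. At P28 its share was 39.6, 33.5 and 29.7 in wild type and 24.98, 29.4 and 23.97 in knockout. The genotypes did not overlap at either age.

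In 3 of the 4 pairs, all but Gria1, the 12-month knockout shares did not overlap wild type. Among 4181 genes with 2 or more coding transcripts at 1 RPKM or above, the share of the leading one did not overlap between these groups in 41.0%, and in 14.6% between the genotypes at P28. The 4 pairs were picked after their values were seen, so their count cannot be weighed against the 41.0%. GC content differed within the pairs too, at 43.6% for Gria2 flip and 36.8% for flop, and 44.002% and 43.1% for Gria4 flip and flop. For Gabrr2, GC content was 52.8% in the form with the shorter coding start, which is the longer transcript, and 52.6% in the other. Its part in the shares was not tested.

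**Figure D5:**
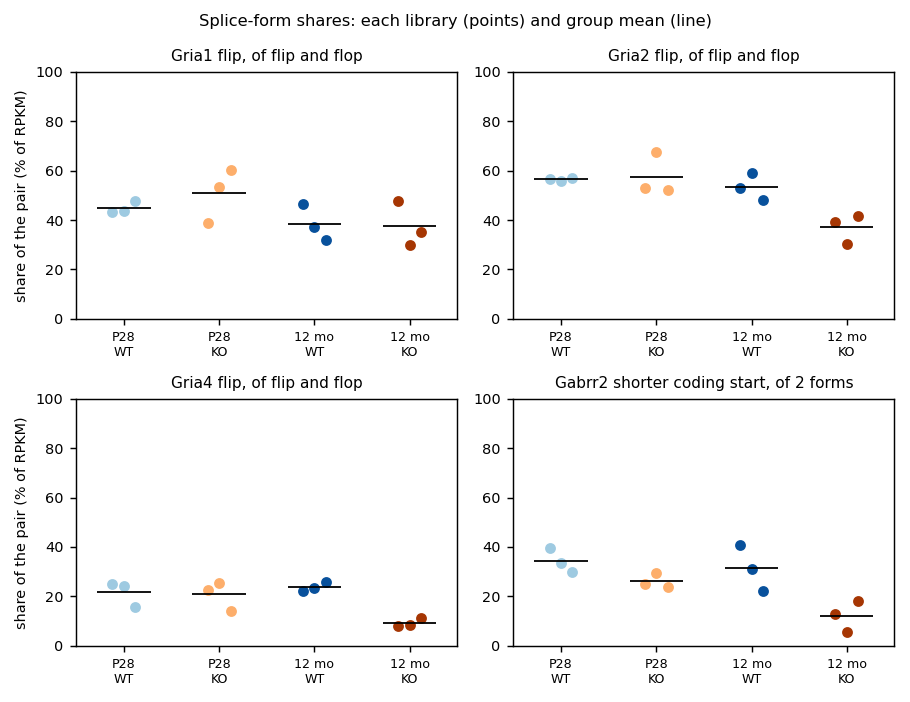
Share of the first transcript in each of 4 transcript pairs, in % of the RPKM of the pair (vertical axis, 0 to 100), for each library (points) with the group mean (line). In 12-month knockout the shares of Gria2, Gria4 and Gabrr2 lie below those of 12-month wild type, while Gria1 overlaps.

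Partners of these receptors were read from 4 lists. Of 13 genes for assembly and scaffolds at inhibitory synapses, 1 was higher and 7 were lower in 12-month knockout, with a median of -0.51 against -0.03 over all genes, of which 16.1% were higher and 23.5% lower. Clptm1 (-0.72 ± 0.13, adjusted p = 0.00306), which limits the delivery of GABA-A receptors to the surface, Nlgn2 (-0.86 ± 0.15, adjusted p = 0.00306), the adhesion protein of inhibitory synapses, and Insyn1 (-1.15 ± 0.23, adjusted p = 0.00365), a gephyrin-linked scaffold, had the smallest p. With the trends removed Clptm1 alone of the 13 passed (-0.40, adjusted p = 0.0398). With age, 1 gene was higher in wild type (Shisa7, 0.75 ± 0.18, adjusted p = 0.028), where 3.65% of all genes were. In knockout 3 were lower (Nlgn2, Insyn1 and Iqsec3), where 13.9% of all genes were. With the trends removed 1 of the 13 was higher in wild type and 1 lower in knockout.

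Of 31 auxiliary subunits and scaffolds of glutamate receptors, 30 were tested, and 4 were higher and 11 lower in 12-month knockout, with a median of -0.30, against 16.1% higher and 23.5% lower among all genes. Dlg1 (0.47 ± 0.087, adjusted p = 0.00324) and Homer1 (0.60 ± 0.11, adjusted p = 0.00332), a scaffold of Grm5, were higher, and Dlg4 (-0.92 ± 0.17, adjusted p = 0.00342), which encodes PSD-95, was lower. With the trends removed 0 passed. With age, Homer1 was higher in both genotypes (0.55 ± 0.11 in wild type, adjusted p = 0.012, and 0.84 ± 0.11 in knockout, adjusted p = 0.000379). Dlg2, the scaffold PSD-93, was lower in both (-0.45 ± 0.11, adjusted p = 0.0339, and -0.50 ± 0.11, adjusted p = 0.00676). Both genes passed in both genotypes with the trends removed as well. In wild type the third gene called was Neto2, a kainate receptor auxiliary subunit (-0.68 ± 0.18, adjusted p = 0.0406). That made 1 of 30 higher and 2 lower, where 3.65% and 1.75% of all genes were. In knockout 2 genes were higher and 11 lower, where 13.3% and 13.9% of all genes were.

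Of 11 genes for the synthesis, loading and uptake of GABA and glycine and for GABA-B receptors, 1 was higher and 3 were lower in 12-month knockout, counts close to the 16.1% and 23.5% of all genes. These were Gad2 (0.37 ± 0.12, adjusted p = 0.0287), which makes GABA, and Slc32a1 (-0.86 ± 0.16, adjusted p = 0.00333), Slc6a9 (-0.86 ± 0.17, adjusted p = 0.00387) and Slc6a11 (-0.55), the vesicular inhibitory amino acid transporter, a glycine transporter and a GABA transporter. With age, 0 of the 11 passed in wild type, and 3 were lower in knockout, among them Slc6a9 and Slc6a11, where 13.9% of all genes were lower. Of 10 genes for glutamate loading, uptake and recycling, 2 were higher and 2 lower in 12-month knockout, again close to the shares of all genes, the latter being the vesicular transporter Slc17a7 (-0.78 ± 0.15, adjusted p = 0.00332) and the transporter Slc1a7 (-0.42 ± 0.15, adjusted p = 0.0446). Gad2, Dlg2 and Slc1a7 were picked for naming after their values were seen. With the trends removed 0 genes of either list passed at 12 months. At P28 0 genes of the 4 lists passed by limma.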

How the data were processed

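Poly(A) RNA of 12 mouse retina libraries was analysed. Per the labels and the series' design text, kallisto 0.45.0 with Ensembl 102 quantified transcripts from paired reads of 125 bases, tximport 1.30.0 made gene totals and edgeR 4.0.3 normalized them. That text gives GRCh38.p7, a human build, while the identifiers are mouse: 51903 of 53028 were found in the GRCm38 annotation, and all 48 members matched a chromosome and an end there. The gene table deposited by the authors holds a TMM-normalized signal in CPM, and its columns sum to 930482 to 1098515. Transcript values are RPKM deposited by the authors, and how they were made is not given in the sources used here. Between 13.4 and 33.5% of low gene values were whole reads within 0.01, so counts were not recovered and count models were not used.

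Genes reaching 1 CPM in 3 or more libraries entered limma 3.58.1 (R 4.3.3) as log2(CPM + 1), with 4 group means, a trended eBayes and Benjamini-Hochberg adjustment over all genes at 0.05. GC content and length came from GENCODE M21 transcripts weighted by RPKM, and trends were splines of 5 degrees of freedom fitted in each library. The steps were tested on simulated data. Alternatives were pseudocounts of 0.1 and 5, 2 other filters, 2 other normalizations, summed RPKM, a sex term, a replicate block, a fit of only the groups compared, trend removal and leaving out each library. Members and lists were chosen with earlier results of these data known. Values per library are given for the 2 members of each family with the highest RPKM and for up to 6 members each way (5 for age) with the smallest adjusted p. Some genes are counted but not reported one by one here. Tables used pandas 2.3.3 and numpy 2.4.6, and figures matplotlib 3.10.9, under Python 3.11.15.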

Additional observations from a re-analysis of the deposited data

How the results depend on the processing

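Of 306 single-gene values recomputed under 11 other settings, 242 stayed past the threshold in the same direction, 61 did not pass and 3 changed sign. The 3 were Gria2 (-0.12), Gria3 (-0.032) and Grik2 (-0.084) at 12 months with GC and length trends removed, which also took the counts there to 0 higher and 1 lower. Members higher in P28 knockout were 0 with the trends removed, with no level filter, with only the groups compared, with a sex term and with summed RPKM. Members lower with age in wild type were 7 with the trends removed, 0 with no level filter, 8 with only the groups compared, 4 with quantile normalization and 1 with a sex term. Members lower with age in knockout were 4 with only the groups compared and 6 with a sex term, and the cause of these moves was not tested. Leaving out 1 library gave these ranges: P28 knockout 0 to 6 higher and 0 to 0 lower, 12-month knockout 6 to 16 higher and 3 to 6 lower, the difference between ages 0 to 6 higher and 0 to 3 lower, age in wild type 0 to 0 higher and 0 to 0 lower, and age in knockout 0 to 2 higher and 6 to 11 lower. Counts over all 16486 tested genes moved as well, from 2 to 889 higher in P28 knockout and from 1308 to 2657 in 12-month knockout.

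The replicate numbers shared across the groups were not taken as pairs: the correlation of same-numbered deviations ran from 0.0989 to 0.308 between the 12-month groups and from -0.107 to 0.0879 between the P28 groups. As a replicate block they gave 0 members higher at P28, 12 higher and 3 lower at 12 months, and 0 lower with age in wild type. Depth limits Gabra6, Gabrp and Grin3b, whose values were at or near the level of 3 reads.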
